A study of Homo sapiens with 8 samples.

Results

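The genes described are 32 genes of fatty acid oxidation and ketogenesis, taken as listed symbols from a table of 26716 genes and 8 RNA-seq libraries of HepG2 cells. HepG2 is a human hepatocellular carcinoma line that keeps many hepatocyte genes. All 32 were found in the table, and all 32 had enough counts to be among the 17715 genes tested. They comprise the regulator PPARA, 6 genes of fatty acid uptake and activation, 3 of carnitine-dependent entry, 9 of the mitochondrial beta-oxidation cycle, 3 auxiliary enzymes for unsaturated chains, 3 of electron transfer, 5 of the peroxisome and 2 of ketone body metabolism.

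Every cell culture received a mimic and an siRNA for 72 h. A mimic is a synthetic double-stranded copy of a microRNA, and an siRNA is a short RNA that lowers a chosen transcript. The groups were miR-552-3p (the mimic at 1 nM with control siRNA at 30 nM), NC (control mimic at 1 nM with control siRNA at 30 nM), si-importin8-miR-552-3p (the mimic at 1 nM with importin8 siRNA at 30 nM) and si-importin8-NC (control mimic at 1 nM with importin8 siRNA at 30 nM), with 2 libraries each. Importin8, encoded by IPO8, is a nuclear import receptor that also binds Argonaute proteins. The study's title concerns how miR-552-3p acts on the nuclear receptors FXR and LXR in hepatic sugar and lipid metabolism. All groups were transfected cells of one line, and no untransfected cells were analysed here.

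Fatty acids enter liver cells with the help of transport proteins and are joined to coenzyme A by acyl-CoA synthetases. Long chains then cross the inner mitochondrial membrane as carnitine esters and are shortened in a repeated 4-step cycle of dehydrogenation, hydration, a second dehydrogenation and thiolysis, while peroxisomes shorten very long and branched chains. In liver the acetyl-CoA formed feeds ketone body synthesis, and PPARA, a nuclear receptor activated by fatty acids, is the best known inducer of many of these genes during fasting.

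The mature miR-552-3p is shown because its seed is the part that pairs with target transcripts. RefSeq (GRCh38.p14) places it at chr1:34669614-34669634 on the minus strand, and it has 21 bases. The capitals mark the seed, bases 2 to 8.
miR-552-3p: aACAGGUGacugguuagacaa

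A transcript that pairs with all 7 seed bases carries CACCTGT in DNA letters. This word was searched in the longest annotated 3′ UTR of each gene (GENCODE on GRCh38, transcript strand only). It was found in 6 of the 32 genes (18.8%; median 3′ UTR 916 bases), against 2673 of 13731 tested genes with a 3′ UTR (19.5%; median 1314 bases), so its share in the pathway was close to that of all genes. Some of the matches are printed because PPARA, ACADSB and EHHADH are among the genes with the largest differences below. Each line gives the place of the 29 or fewer bases shown and the strand, and the capitals mark the match.
PPARA, chr22:46239940-46239968, plus strand: tccagtggccaCACCTGTctttgaaatgt
ACADSB, chr10:123053976-123054004, plus strand: tgggaaataagCACCTGTatttttttcca
EHHADH, chr3:185190831-185190859, minus strand: cacaatattttCACCTGTgaacccaaata
ACADS, chr12:120739985-120740008, plus strand: ggtaataaacaCACCTGTccccca
HADHA, chr2:26190695-26190723, minus strand: tcaaccacacaCACCTGTctgtgcagatg

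A match is a description of these letters and was not tested as a site of binding.

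The libraries held 21608563 to 22102373 expected counts, and the 32 genes took 0.393 and 0.408% of them in miR-552-3p against 0.295 and 0.310% in NC, and 0.531 and 0.545% in si-importin8-miR-552-3p against 0.519 and 0.527% in si-importin8-NC. Such a share leans on abundant genes such as ACSL4, at 6840 and 6321 counts in NC and 16178 and 15996 in miR-552-3p. Taken singly, 12 of the 32 genes rose and 12 fell with the mimic and control siRNA. The lowest count of any of the 32 genes was 71.2 (SLC25A20 in a si-importin8-miR-552-3p library). IPO8, the target of the siRNA, was at 11.3 and 11.5 CPM (counts scaled to library size with TMM factors) in si-importin8-NC against 34.7 and 33.3 CPM in NC, and at 7.65 and 8.30 CPM in si-importin8-miR-552-3p against 25.4 and 24.6 CPM in miR-552-3p. The siRNA effect on IPO8 was -1.57 with control mimic (adjusted p = 4.5e-07) and -1.65 with the mimic (adjusted p = 1.4e-06). IPO8 was lower in the mimic libraries as well, at -0.44 on the log2 scale under control siRNA (adjusted p = 0.00083) and -0.52 under importin8 siRNA (adjusted p = 0.0022). Hepatocyte and HepG2 markers were high in all 8 libraries (8 of 8 tested), and their summed level was 47330 to 48261 CPM in miR-552-3p, 59524 to 65671 CPM in NC, 68534 to 72404 CPM in si-importin8-miR-552-3p and 61223 to 63287 CPM in si-importin8-NC. With the mimic and control siRNA 1 of these 8 markers rose and 5 fell, with log2 fold changes of -2.32 to 3.25, and with importin8 siRNA 2 rose and 2 fell (-1.21 to 1.08). The siRNA raised 4 and lowered 3 with control mimic (-0.42 to 2.68) and raised 7 and lowered none with the mimic (0.23 to 2.29). The fibroblast markers DCN and LUM were at 0 in all but 1 library each, and 5 fibroblast markers summed to 0.482 to 4.76 CPM over all libraries. Of the leukocyte and endothelial markers only LYZ (839 to 2390 CPM) and PECAM1 (14.3 to 72.4 CPM) passed 10 CPM. Their part in the results was not tested. The series' design text gives 2 experiments per group and does not call them separate cultures. The p-values therefore measure only how far these libraries spread, which may be technical. In such bulk samples a change in the make-up of the cells and a change of RNA per cell cannot be told apart.

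The mimic moved genes of the pathway in both directions. With control siRNA, 12 of the 32 genes rose and 12 fell in miR-552-3p relative to NC (24 called, 75%), and 8 did not pass an adjusted p of 0.05 in edgeR's quasi-likelihood test. The background was 58.4% of all 17715 genes called in this comparison, 28.9% higher and 29.5% lower. That background holds many genes with few counts. All 32 genes were kept in a fit of the 12897 genes with a mean of at least 50 counts. There 70.6% of the genes were called, and 12 of the 32 rose and 12 fell. At a difference of at least 2-fold, 3 genes rose and 6 fell, where 25% of all genes did so, 11.2% higher and 13.8% lower. The median log2 fold change was -0.003 over the 32 genes and -0.008 over all genes. With importin8 siRNA, 7 rose and 11 fell in si-importin8-miR-552-3p relative to si-importin8-NC (18 called, 56.2%, where 31.7% of all genes were called), with medians of -0.12 over the 32 and -0.005 over all. In the fit of genes with a mean of at least 50 counts, 43.8% of the genes were called, and 9 of the 32 rose and 11 fell. In the main fit with importin8 siRNA 1 gene rose and 2 fell at least 2-fold, where 6.38% of all genes did so, 3.09% higher and 3.3% lower. Without si-importin8-NC replicate 1 or si-importin8-miR-552-3p replicate 1 the genes that rose were 4 instead of 7.

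The importin8 siRNA moved more of the 32 genes up than down. With control mimic, 17 rose and 4 fell in si-importin8-NC relative to NC (21 called, 65.6%), where 47% of all genes were called, 25.4% higher and 21.6% lower. At least 2-fold, 6 rose and 2 fell, where 14.1% of all genes did so, 5.68% higher and 8.39% lower. With the mimic, 16 rose and 2 fell in si-importin8-miR-552-3p relative to miR-552-3p (18 called, 56.2%), where 33.5% of all genes were called, 17.3% higher and 16.2% lower. At least 2-fold, 6 rose and none fell, where 7.72% of all genes did so, 2.88% higher and 4.84% lower. The medians over the 32 genes were 0.27 with control mimic and 0.31 with the mimic on the log2 scale, against -0.002 and -0.01 over all genes. In the fit of genes with a mean of at least 50 counts, 59.8% of the genes were called with control mimic and 45.2% with the mimic. There 16 of the 32 genes rose and 4 fell with control mimic, and 16 rose and 2 fell with the mimic. Members of one pathway are not independent of each other, and no test was made of the list as a whole.

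**Figure D1:**
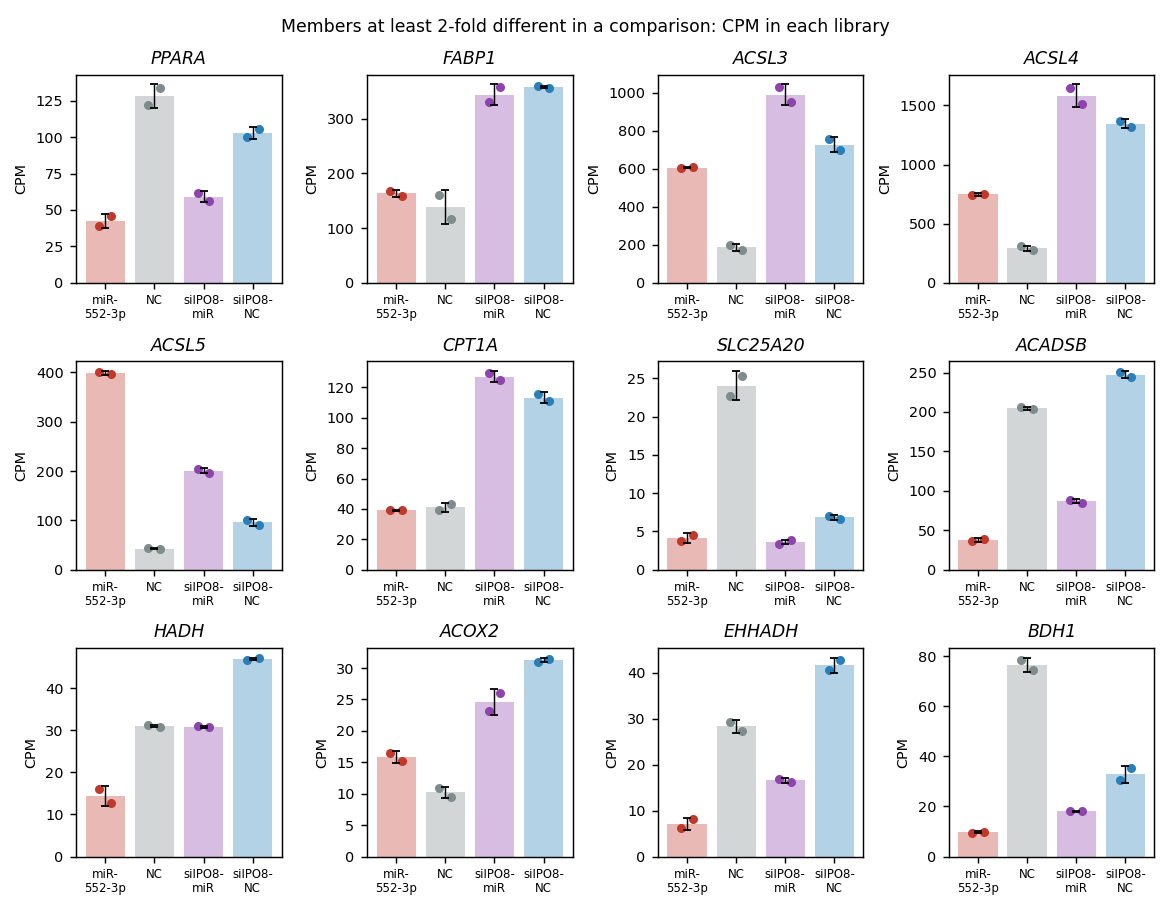
CPM in each library (points), group mean (bars) and SD (error bars, n = 2) for the 12 genes with an adjusted p under 0.05 and a difference of at least 2-fold in a comparison, where siIPO8-miR and siIPO8-NC are the groups si-importin8-miR-552-3p and si-importin8-NC. ACSL5 stands highest in miR-552-3p (401 and 396 CPM), BDH1 and SLC25A20 stand highest in NC, and CPT1A separates the importin8 siRNA libraries from the others.

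PPARA (chr22:46150521-46243756 on GRCh38, plus strand) was lower with the mimic under both siRNAs. It was at 39.3 and 46.1 CPM in miR-552-3p against 122 and 134 CPM in NC, and at 61.6 and 56.3 CPM in si-importin8-miR-552-3p against 99.9 and 105 CPM in si-importin8-NC. The mimic libraries lay below the control mimic libraries in both arms with no overlap. The log2 fold changes were -1.58 ± 0.09 (SE; adjusted p = 2.0e-07) with control siRNA and -0.80 ± 0.09 (adjusted p = 0.00011) with importin8 siRNA. The effect of the siRNA on PPARA had opposite signs, at -0.32 ± 0.08 with control mimic (adjusted p = 0.011) and 0.47 ± 0.09 with the mimic (adjusted p = 0.0029). The fall with control mimic did not pass without NC replicate 2 (-0.25; adjusted p = 0.066) or without si-importin8-NC replicate 1 (-0.27; adjusted p = 0.090), nor on log2(FPKM + 1) in limma (-0.28; adjusted p = 0.069).

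Of the genes of uptake and activation, the acyl-CoA synthetases carried the largest rises. With the mimic and control siRNA 4 of these 6 genes rose and 1 fell, and with importin8 siRNA 3 rose and 1 fell. Of all genes 28.9% rose and 29.5% fell with control siRNA, and 15% and 16.7% with importin8 siRNA. The ACSL1 and SLC27A2 calls with importin8 siRNA depended on single libraries, as given below. The siRNA raised 5 and lowered none with control mimic, and raised 3 and lowered 1 with the mimic. It raised 25.4% and lowered 21.6% of all genes with control mimic, and 17.3% and 16.2% with the mimic. The median log2 fold changes over the 6 were 1.07 and 0.27 for the mimic (control siRNA, importin8 siRNA) and 1.27 and 0.48 for the siRNA (control mimic, mimic).

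ACSL5 (chr10:112374018-112428380, plus strand), a synthetase of mitochondria and endoplasmic reticulum, was at 401 and 396 CPM in miR-552-3p against 43.0 and 42.7 CPM in NC. In the importin8 siRNA arm it was at 205 and 197 CPM in si-importin8-miR-552-3p against 101 and 91.5 CPM in si-importin8-NC. The replicates lay close together, and no library of a mimic group overlapped its control. The mimic effect was 3.22 ± 0.07 on the log2 scale (9.30-fold; adjusted p = 8.9e-10) with control siRNA and 1.06 ± 0.07 (adjusted p = 5.7e-06) with importin8 siRNA. The importin8 siRNA raised ACSL5 with control mimic (1.17 ± 0.07; adjusted p = 9.7e-07) and lowered it with the mimic (-0.99 ± 0.07; adjusted p = 4.1e-06).

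ACSL3 (chr2:222860934-222944639, plus strand), a synthetase found on lipid droplets and endoplasmic reticulum, was at 604 and 606 CPM in miR-552-3p against 200 and 172 CPM in NC. It was at 1027 and 951 CPM in si-importin8-miR-552-3p against 756 and 698 CPM in si-importin8-NC. NC was the low group, and both active agents went with higher levels. Its response to the mimic was 1.70 ± 0.09 with control siRNA (adjusted p = 1.5e-07) and 0.44 ± 0.09 with importin8 siRNA (adjusted p = 0.0038), and the siRNA effect was 1.96 ± 0.09 with control mimic (adjusted p = 1.9e-07) and 0.71 ± 0.09 with the mimic (adjusted p = 0.00020).

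ACSL4 (chrX:109624244-109733403, minus strand), which favours arachidonic acid, was at 741 and 754 CPM in miR-552-3p against 308 and 277 CPM in NC. It was at 1649 and 1514 CPM in si-importin8-miR-552-3p against 1372 and 1320 CPM in si-importin8-NC. The siRNA libraries were the higher ones in each pair. The siRNA effect was 2.2 ± 0.09 with control mimic (adjusted p = 6.7e-08) and 1.08 ± 0.08 with the mimic (adjusted p = 9.0e-06), and the mimic effect was 1.35 ± 0.08 with control siRNA (adjusted p = 3.9e-07) and 0.23 ± 0.08, not passed, with importin8 siRNA (adjusted p = 0.054). ACSL1, the main synthetase of adult liver, rose with the mimic by 0.79 ± 0.07 with control siRNA and by 0.30 ± 0.07 with importin8 siRNA. The second of these calls did not pass without si-importin8-NC replicate 1 (0.27; adjusted p = 0.067) or si-importin8-miR-552-3p replicate 1 (0.28; adjusted p = 0.068). With the siRNA ACSL1 rose by 0.34 ± 0.07 with control mimic (adjusted p = 0.0029; on log2(FPKM + 1) in limma 0.16, adjusted p = 0.091), and with the mimic its difference of -0.15 ± 0.07 did not pass.

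Read per length, as FPKM (counts scaled to gene length and library size), the 4 synthetase transcripts together were at 466 and 476 in miR-552-3p against 136 and 135 in NC, and at 692 and 638 in si-importin8-miR-552-3p against 533 and 511 in si-importin8-NC. ACSL5 made up 30.5 and 29.1% of that sum in miR-552-3p, against 10.5 and 10.3% in NC. Its share was 10.2% in both si-importin8-miR-552-3p libraries, against 6.26 and 6.22% in si-importin8-NC. ACSL4 held the reverse pattern, with 30.8 and 30.5% in miR-552-3p against 44.4 and 42.2% in NC, and 44.9 and 45.3% in si-importin8-miR-552-3p against 51.0 and 51.7% in si-importin8-NC.

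**Figure D2:**
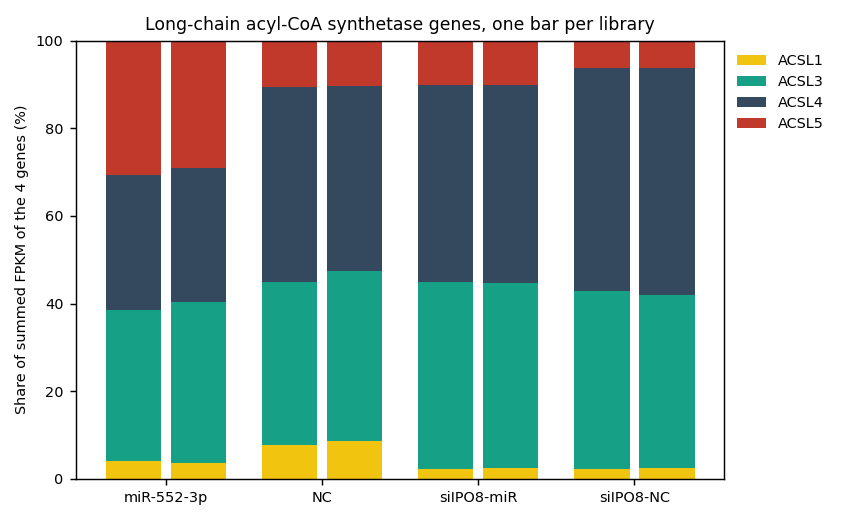
Share of the summed FPKM of ACSL1, ACSL3, ACSL4 and ACSL5 in each library, 1 bar per library and 2 bars per group (siIPO8-miR is si-importin8-miR-552-3p, siIPO8-NC is si-importin8-NC). The ACSL5 part is 30.5 and 29.1% in miR-552-3p and 10.5% or less in the other 6 libraries.

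FABP1 (chr2:88122982-88128116, minus strand), the liver fatty acid binding protein, was higher with the siRNA under both mimics. It was at 359 and 356 CPM in si-importin8-NC against 160 and 116 CPM in NC, and at 331 and 357 CPM in si-importin8-miR-552-3p against 168 and 159 CPM in miR-552-3p. The siRNA effect was 1.37 ± 0.13 with control mimic (adjusted p = 6.0e-05) and 1.07 ± 0.13 with the mimic (adjusted p = 0.00042). The mimic effect was 0.25 ± 0.13 with control siRNA (adjusted p = 0.15) and -0.06 ± 0.13 with importin8 siRNA (adjusted p = 0.79), and neither passed. Per length FABP1 was the most abundant of the 32 transcripts in every group, with a mean FPKM of 297 in miR-552-3p, 262 in NC, 613 in si-importin8-miR-552-3p and 670 in si-importin8-NC. SLC27A2, a very long-chain acyl-CoA synthetase and transporter, fell under the mimic by 0.39 ± 0.10 under control siRNA and by 0.37 ± 0.10 with importin8 siRNA, and the second call did not pass without si-importin8-NC replicate 2 (-0.29; adjusted p = 0.12) or si-importin8-miR-552-3p replicate 2 (-0.31; adjusted p = 0.12), nor in DESeq2 (-0.37; adjusted p = 0.069). Its differences with the siRNA, 0.22 and 0.24, did not pass.

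FABP1 and ACSL5 are also the genes of the list with a RefSeq promoter window that holds AGGTCA, the half-site of nuclear receptors of the PPAR type. A window (GRCh38.p14) runs from 250 bases before to 50 after a start. Some genes have several starts, and a gene was counted where any of its windows held the word. For ACSL5 another window held none. Promoters were found for 27 of the 32 genes and not for ETFDH, EHHADH, DECR1, ACOX2 and ACAA1. On either strand AGGTCA was in 2 of 27 (7.41%), against 4513 of 27305 genes (16.5%), and its direct repeat with 1 base between the copies was in none of 27, against 8 of 27305 (0.0293%). The words are printed with their surroundings, and capitals mark the half-site or its reverse complement TGACCT.
FABP1, chr2:88128114-88128141, minus strand: tcaacagctgcTGACCTctggccgctat
FABP1, chr2:88128035-88128062, minus strand: ggcagagccgcAGGTCAgtcgtgaagag
ACSL5, chr10:112375034-112375061, plus strand: tttactggaggAGGTCAataaaaaaaaa

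The first FABP1 word lies 68 bases before the start, and the second begins at base 12 after it. The ACSL5 word lies 223 bases before the start used for that window. The microRNA's word CACCTGT, which contains the shorter word CACCTG, was in 3 of the 27 promoters (ACADVL, ACSL1 and HSD17B4; 11.1%), against 1383 of 27305 genes (5.07%), and CACCTG was in 8 (29.6%), against 6571 (24.1%). The median share of G and C was 66.3% over all windows of the 27 genes and 58.7% over all promoter windows. No binding was measured here.

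Carnitine-dependent entry split between its genes. CPT1A (chr11:68754620-68844410, minus strand), the outer-membrane acyltransferase that limits the rate of entry, was at 130 and 125 CPM in si-importin8-miR-552-3p against 39.0 and 39.3 CPM in miR-552-3p, and at 116 and 111 CPM in si-importin8-NC against 39.0 and 43.3 CPM in NC. The siRNA effect was 1.70 ± 0.07 with the mimic (adjusted p = 4.5e-07) and 1.46 ± 0.07 with control mimic (adjusted p = 1.8e-07), and all 4 siRNA libraries lay above all 4 others. The mimic effect on CPT1A was -0.07 ± 0.07 with control siRNA (adjusted p = 0.41) and 0.17 ± 0.06 with importin8 siRNA (adjusted p = 0.076), and neither passed.

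SLC25A20 (chr3:48856931-48898993, minus strand), the carrier that exchanges acylcarnitine for carnitine across the inner membrane, was highest in NC. It was at 3.71 and 4.57 CPM in miR-552-3p against 22.7 and 25.4 CPM in NC, and at 3.41 and 3.84 CPM in si-importin8-miR-552-3p against 7.04 and 6.61 CPM in si-importin8-NC. In the plot of CPM by library every group with an active agent lies far below NC. Under the mimic the change was -2.54 ± 0.14 with control siRNA (adjusted p = 1.8e-07) and -0.91 ± 0.15 with importin8 siRNA (adjusted p = 0.0013). The siRNA effect was -1.82 ± 0.13 with control mimic (adjusted p = 3.3e-06) and -0.19 ± 0.16, not passed, with the mimic (adjusted p = 0.40).

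CPT2, the inner-membrane acyltransferase, fell under the mimic by 0.58 ± 0.12 under control siRNA (adjusted p = 0.0017) and by 0.67 ± 0.11 with importin8 siRNA (adjusted p = 0.0014). It rose with the siRNA by 0.55 ± 0.11 with control mimic (adjusted p = 0.0023) and by 0.46 ± 0.12 with the mimic (adjusted p = 0.013). The last call did not pass without miR-552-3p replicate 2 (0.36; adjusted p = 0.092) or si-importin8-miR-552-3p replicate 1 (0.36; adjusted p = 0.11), nor in DESeq2 (0.46; adjusted p = 0.078).

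In the beta-oxidation cycle the mimic with control siRNA lowered ACADSB, HADH, ACADS and ACADM. There ACADVL and HADHA rose by less than 2-fold, and ECHS1, HADHB and ACAA2 did not pass. With control siRNA 2 of the 9 genes rose, 4 fell and 3 did not pass. With importin8 siRNA 1 rose, 3 fell and 5 did not pass. The share called with the mimic was 66.7 and 44.4% of the 9, against 58.4 and 31.7% of all genes. The siRNA raised 3 of the 9 with control mimic and 4 with the mimic, and lowered none in either. It raised 25.4 and 17.3% of all genes in the same order. The share called with the siRNA was 33.3 and 44.4% of the 9, against 47 and 33.5% of all genes. The ACADS call with the mimic depended on single libraries, as given below.

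ACADSB (chr10:123008979-123058311, plus strand), the dehydrogenase of short branched chains from isoleucine, moved most. It was at 35.8 and 39.2 CPM in miR-552-3p against 206 and 203 CPM in NC, and at 88.8 and 85.2 CPM in si-importin8-miR-552-3p against 250.2 and 244 CPM in si-importin8-NC. The mimic libraries were lower in both arms. The mimic effect was -2.45 ± 0.07 with control siRNA (adjusted p = 2.2e-09) and -1.51 ± 0.06 with importin8 siRNA (adjusted p = 5.9e-07). The siRNA effect was 0.27 ± 0.06 with control mimic (adjusted p = 0.0044) and 1.21 ± 0.07 with the mimic (adjusted p = 1.6e-06).

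HADH (chr4:107989714-108035175, plus strand), the 3-hydroxyacyl-CoA dehydrogenase of short and medium chains, was at 15.98 and 12.6 CPM in miR-552-3p against 31.2 and 30.9 CPM in NC. It was at 30.9 and 30.7 CPM in si-importin8-miR-552-3p against 46.8 and 47.1 CPM in si-importin8-NC. The si-importin8-miR-552-3p values lay close to those of NC, a pair of groups that was not tested. On the log2 scale the mimic effect was -1.12 ± 0.10 with control siRNA (adjusted p = 6.3e-06) and -0.61 ± 0.09 with importin8 siRNA (adjusted p = 0.00093), and the siRNA effect was 0.60 ± 0.09 with control mimic (adjusted p = 0.00050) and 1.11 ± 0.10 with the mimic (adjusted p = 2.7e-05). ACADS, the short-chain dehydrogenase, fell under the mimic by 0.94 ± 0.09 under control siRNA (adjusted p = 8.1e-06) and by 0.66 ± 0.09 with importin8 siRNA (adjusted p = 0.00033). Its rise with the siRNA in mimic cells (0.30 ± 0.09; adjusted p = 0.029) did not pass without any 1 of the 4 libraries compared, miR-552-3p replicates 1 and 2 and si-importin8-miR-552-3p replicates 1 and 2 (0.25 to 0.35; adjusted p = 0.065 to 0.16), nor in DESeq2 (0.29; adjusted p = 0.26) or with those 4 libraries fitted alone (0.29; adjusted p = 0.057).

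ACADM, the medium-chain dehydrogenase, fell by 0.36 ± 0.08 with the mimic and control siRNA (adjusted p = 0.0036), and with importin8 siRNA its difference of -0.13 ± 0.08 did not pass. In mimic cells the siRNA raised ACADM by 0.39 ± 0.08 (adjusted p = 0.0040). ACADVL, the very long-chain dehydrogenase, rose with the mimic in both arms, by 0.32 ± 0.07 (adjusted p = 0.0027) and 0.42 ± 0.07 (adjusted p = 0.0013) on the log2 scale with control and importin8 siRNA, and its siRNA differences, -0.10 with control mimic and nearer to 0 with the mimic, did not pass. ECHS1, the short-chain enoyl-CoA hydratase, passed in none of the 5 tests, and its log2 values lay between -0.14 and 0.11. ACAA2, the thiolase of the matrix, rose by 0.48 ± 0.09 with the siRNA and control mimic (adjusted p = 0.0013) and did not pass elsewhere.

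HADHA and HADHB encode the alpha and beta subunits of the mitochondrial trifunctional protein, which carries out the last 3 steps on long chains. Their RefSeq starts on chromosome 2 lie 307 bases apart on opposite strands, at 26244632 for HADHA (minus) and 26244939 for HADHB (plus), so that their promoter windows share 194 bases. HADHA rose by 0.34 ± 0.07 with the mimic and control siRNA (adjusted p = 0.0026), HADHB was at 0.09 ± 0.08 (adjusted p = 0.39) there, and neither passed in another comparison. HADHA was at 361 and 340 CPM in miR-552-3p against 293 and 260.4 CPM in NC, with 326 and 325 CPM in si-importin8-miR-552-3p and 300.5 and 293 CPM in si-importin8-NC. The annotated gene bodies overlap at their starts, and the sources used here do not give whether the counting used strand. The HADHB window (chr2:26244689-26244988, plus strand) is printed with the bases shared with the HADHA window in capitals.
HADHB: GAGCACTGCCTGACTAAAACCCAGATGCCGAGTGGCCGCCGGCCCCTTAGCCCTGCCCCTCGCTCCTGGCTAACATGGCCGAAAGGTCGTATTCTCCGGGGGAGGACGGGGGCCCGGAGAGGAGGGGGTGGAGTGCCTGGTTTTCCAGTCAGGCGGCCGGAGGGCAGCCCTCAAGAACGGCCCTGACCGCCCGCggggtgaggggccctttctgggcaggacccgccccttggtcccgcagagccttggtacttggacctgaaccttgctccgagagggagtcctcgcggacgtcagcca

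Of the auxiliary enzymes that handle double bonds, 2 of 3 rose with the mimic and control siRNA and 1 with importin8 siRNA. Of all genes 28.9 and 15% rose in these comparisons. DECR1, the mitochondrial 2,4-dienoyl-CoA reductase, was at 35.8 and 33.5 CPM in miR-552-3p against 19.8 and 19.7 CPM in NC, and at 33.1 and 32.9 CPM in si-importin8-miR-552-3p against 23.9 and 22.03 CPM in si-importin8-NC. The mimic effect was 0.81 ± 0.08 (adjusted p = 9.5e-06) and 0.52 ± 0.08 (adjusted p = 0.00068) with control and importin8 siRNA. The rise of DECR1 with the siRNA and control mimic (0.22 ± 0.08; adjusted p = 0.046) did not pass in 15 of 17 alternatives. Without any 1 of the other 7 libraries (both of si-importin8-NC, NC and si-importin8-miR-552-3p, and miR-552-3p replicate 2) it was 0.16 to 0.28 with an adjusted p of 0.051 to 0.24. ECI2, an enoyl-CoA isomerase of mitochondria and peroxisomes, rose by 0.48 ± 0.08 with the mimic and control siRNA (adjusted p = 0.00041) and by 0.61 ± 0.08 with the siRNA and control mimic (adjusted p = 0.00013), and its differences in the other 2 comparisons, -0.15 and -0.02, did not pass. ECI1, its mitochondrial relative, passed in none of the 5 tests.

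Electron transfer flavoprotein passes electrons from the dehydrogenases to the respiratory chain. ETFA, its alpha subunit, was at 192 and 177 CPM in miR-552-3p against 125 and 97.9 CPM in NC, and at 172 and 165 CPM in si-importin8-miR-552-3p against 136 and 127 CPM in si-importin8-NC. The mimic libraries were higher in both arms, by 0.73 ± 0.11 with control siRNA (adjusted p = 0.00027) and by 0.36 ± 0.11 with importin8 siRNA (adjusted p = 0.028). The second call did not pass without any 1 of the libraries compared, si-importin8-miR-552-3p replicates 1 and 2 and si-importin8-NC replicates 1 and 2 (0.31 to 0.41; adjusted p = 0.066 to 0.16), nor on log2(FPKM + 1) in limma (0.30; adjusted p = 0.066). With the siRNA the ETFA differences were 0.24 and -0.13 and did not pass. ETFB, the beta subunit, rose by 0.34 ± 0.11 with the mimic and control siRNA (adjusted p = 0.022), which did not pass without NC replicate 2, miR-552-3p replicate 1 or miR-552-3p replicate 2 (0.16 to 0.38; adjusted p = 0.055 to 0.11), nor with the 4 libraries compared fitted alone (0.34; adjusted p = 0.053). It rose by 0.54 ± 0.11 with the siRNA and control mimic (adjusted p = 0.0030). ETFDH, which hands the electrons to ubiquinone, passed in none of the 5 tests.

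The counts of the 5 peroxisomal genes leaned lower with the mimic and higher with the siRNA. ECI2, also of mitochondria, was counted with the auxiliary enzymes. With the mimic 1 of the 5 rose and 3 fell with control siRNA, and none rose and 3 fell with importin8 siRNA. Of all genes 28.9% rose and 29.5% fell with control siRNA, and 15% and 16.7% with importin8 siRNA. The ACOX2 and HSD17B4 calls with importin8 siRNA depended on single libraries, as given below. With the siRNA 3 rose and 1 fell with control mimic, and 4 rose and 1 fell with the mimic. Of all genes 25.4% rose and 21.6% fell with control mimic, and 17.3% and 16.2% with the mimic.

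EHHADH (chr3:185190624-185281990, minus strand), the bifunctional enzyme of the inducible peroxisomal cycle, was at 6.18 and 8.10 CPM in miR-552-3p against 29.4 and 27.3 CPM in NC. It was at 16.9 and 16.2 CPM in si-importin8-miR-552-3p against 40.5 and 42.8 CPM in si-importin8-NC. The 4 groups did not overlap. The change with the mimic was -1.99 ± 0.12 with control siRNA (adjusted p = 3.1e-07) and -1.33 ± 0.11 with importin8 siRNA (adjusted p = 1.9e-05), and the siRNA effect was 0.56 ± 0.10 with control mimic (adjusted p = 0.0015) and 1.22 ± 0.12 with the mimic (adjusted p = 4.9e-05). On log2(FPKM + 1) in limma the rise of EHHADH with control mimic did not pass (0.38; adjusted p = 0.094).

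ACOX2 (chr3:58505136-58537319, minus strand), the oxidase for branched chains and bile acid intermediates, was the only one of the 32 called in opposite directions in the arms of the mimic comparison. It was at 16.5 and 15.2 CPM in miR-552-3p against 10.8 and 9.55 CPM in NC, and at 23.2 and 26.05 CPM in si-importin8-miR-552-3p against 31.0 and 31.5 CPM in si-importin8-NC. Relative to control mimic the change was 0.64 ± 0.10 with control siRNA (adjusted p = 0.00042) and -0.34 ± 0.09 with importin8 siRNA (adjusted p = 0.019). The second did not pass without si-importin8-NC replicate 1, si-importin8-NC replicate 2 or si-importin8-miR-552-3p replicate 1 (-0.35 to -0.25; adjusted p = 0.073 to 0.16), nor in DESeq2 (-0.34; adjusted p = 0.13). The siRNA raised ACOX2 by 1.62 ± 0.10 with control mimic (adjusted p = 1.2e-06) and by 0.63 ± 0.10 with the mimic (adjusted p = 0.00079).

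HSD17B4, the D-bifunctional protein for branched and very long chains, fell under the mimic by 0.48 ± 0.06 under control siRNA (adjusted p = 0.00011) and by 0.22 ± 0.06 with importin8 siRNA (adjusted p = 0.023). The second call did not pass without any 1 of the libraries compared, si-importin8-miR-552-3p replicates 1 and 2 and si-importin8-NC replicates 1 and 2 (-0.25 to -0.17; adjusted p = 0.054 to 0.16). The siRNA raised HSD17B4 by 0.28 ± 0.06 with control mimic (adjusted p = 0.0044) and by 0.53 ± 0.06 with the mimic (adjusted p = 0.00015). ACAA1, the peroxisomal thiolase, fell by 0.60 ± 0.06 with the mimic and control siRNA (adjusted p = 1.9e-05), and with importin8 siRNA its difference of -0.15 ± 0.06 did not pass (adjusted p = 0.10). The siRNA raised ACAA1 by 0.51 ± 0.06 with the mimic (adjusted p = 0.00020), and with control mimic its difference of 0.06 ± 0.06 did not pass. ABCD3, a transporter of the peroxisomal membrane, was the peroxisomal gene that fell with the siRNA, by 0.55 ± 0.06 with control mimic (adjusted p = 6.8e-05) and by 0.34 ± 0.06 with the mimic (adjusted p = 0.0025), and its mimic differences of -0.07 and 0.15 did not pass.

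The ketone genes went apart. BDH1 (chr3:197509783-197573323, minus strand), the mitochondrial enzyme that interconverts acetoacetate and 3-hydroxybutyrate, was at 9.34 and 9.99 CPM in miR-552-3p against 78.4 and 74.6 CPM in NC, and at 18.0 and 18.3 CPM in si-importin8-miR-552-3p against 30.4 and 35.3 CPM in si-importin8-NC. NC was the high group, and the mimic alone gave the lowest level. The mimic effect was -2.98 ± 0.09 with control siRNA (7.92-fold lower; adjusted p = 4.5e-09) and -0.85 ± 0.09 with importin8 siRNA (adjusted p = 8.5e-05). The siRNA effect was -1.22 ± 0.08 with control mimic (adjusted p = 2.0e-06) and 0.91 ± 0.10 with the mimic (adjusted p = 7.7e-05).

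ACAT1, the mitochondrial acetoacetyl-CoA thiolase, was at 132 and 123 CPM in miR-552-3p against 81.9 and 70.5 CPM in NC, and at 162 and 158 CPM in si-importin8-miR-552-3p against 129 and 129 CPM in si-importin8-NC. It rose with the mimic by 0.74 ± 0.08 with control siRNA (adjusted p = 1.8e-05) and by 0.31 ± 0.08 with importin8 siRNA (adjusted p = 0.012). The second call did not pass without si-importin8-NC replicate 1, si-importin8-NC replicate 2 or si-importin8-miR-552-3p replicate 1 (0.30 to 0.31; adjusted p = 0.060 to 0.068), nor on log2(FPKM + 1) in limma (0.23; adjusted p = 0.057). It also rose with the siRNA, by 0.76 ± 0.08 with control mimic (adjusted p = 2.9e-05) and by 0.33 ± 0.08 with the mimic (adjusted p = 0.0080), the last not passing without miR-552-3p replicate 2 (0.28; adjusted p = 0.062).

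**Figure D3:**
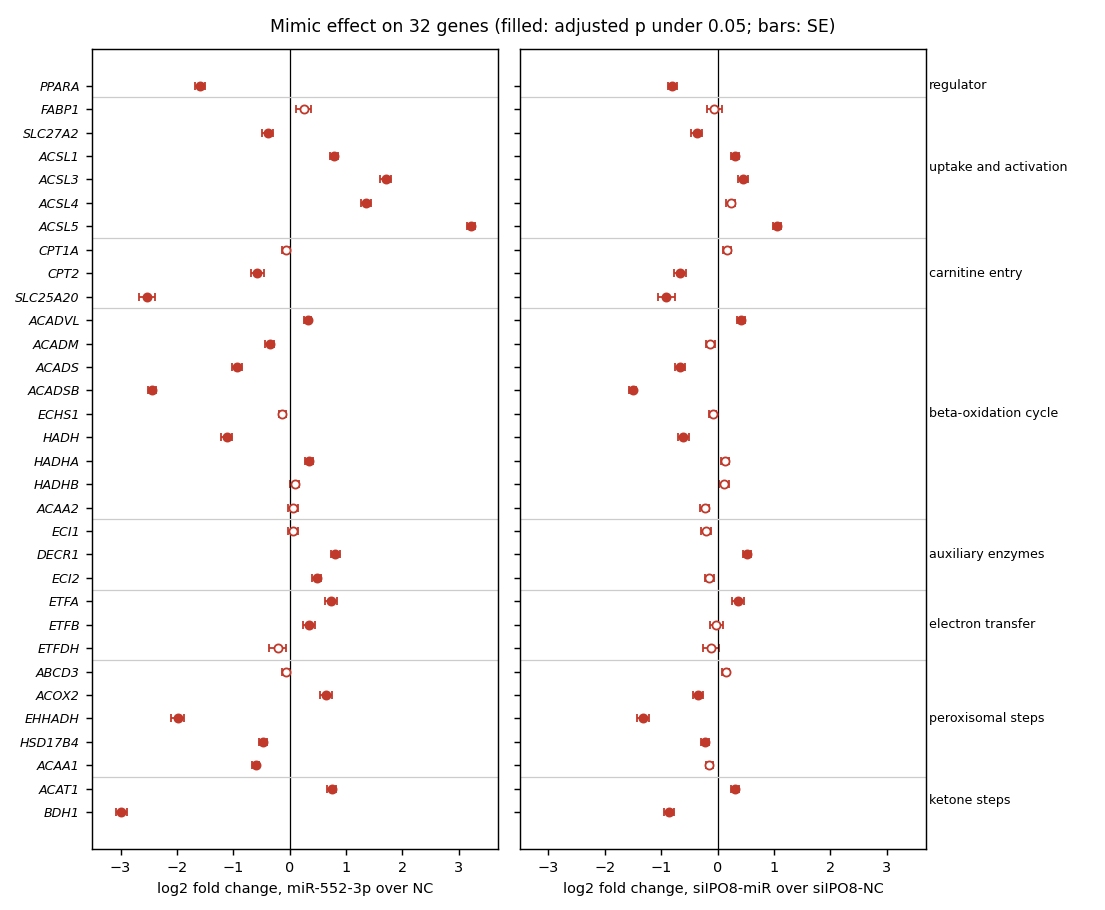
Log2 fold change (points) with SE (bars) of the mimic over the control mimic for the 32 genes by step, with control siRNA in the left panel and with importin8 siRNA (siIPO8) in the right panel; filled points have an adjusted p under 0.05. The values run from -2.98 (BDH1) to 3.22 (ACSL5) in the left panel and from -1.51 (ACADSB) to 1.06 (ACSL5) in the right panel.

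Set side by side, mitochondrial, peroxisomal and ketone genes gave the following counts. ECI2, which belongs to both mitochondria and peroxisomes, was left out of these sets, and its values are given above with the auxiliary enzymes. Of the 17 mitochondrial genes, 5 rose and 6 fell with the mimic and control siRNA (median log2 fold change -0.07), and 3 rose and 5 fell with importin8 siRNA (median -0.11). Of the 5 peroxisomal genes, the medians were -0.48 and -0.22 for the same comparisons, and of the 2 ketone genes 1 rose and 1 fell in both. The siRNA raised 7 and lowered 1 of the mitochondrial genes with control mimic (median 0.22), and raised 6 and lowered none with the mimic (median 0.17). Its medians over the peroxisomal genes were 0.28 and 0.53. The share called was 64.7 and 47.1% of the mitochondrial genes for the mimic, and 47.1 and 35.3% for the siRNA. In the same order it was 80 and 60%, and 80 and 100%, of the peroxisomal genes. Over all genes tested it was 58.4 and 31.7%, and 47 and 33.5%. In the fit of genes with a mean of at least 50 counts it was 70.6 and 43.8%, and 59.8 and 45.2%. With 5 and 2 genes in the smaller sets, these are descriptions, and no test of a difference between the compartments was made.

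**Figure D4:**
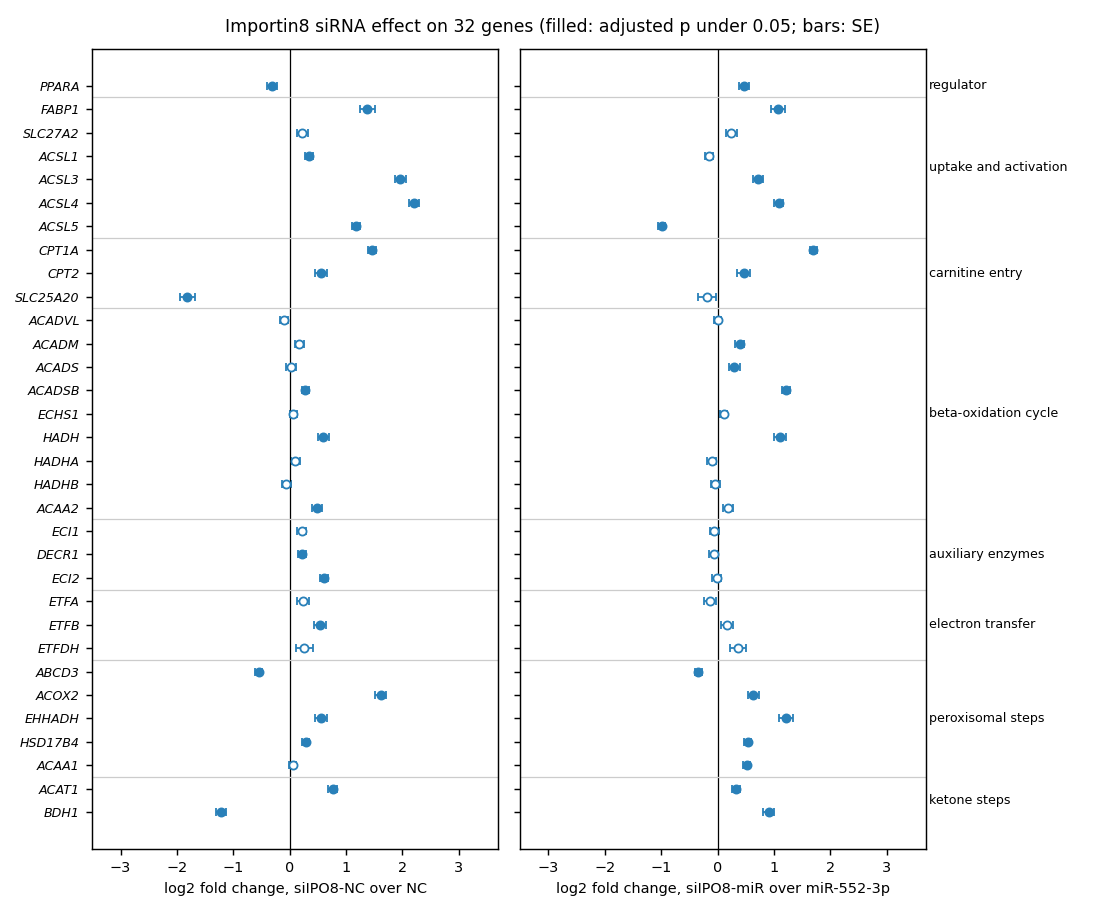
Log2 fold change (points) with SE (bars) of importin8 siRNA over control siRNA for the 32 genes by step, with control mimic in the left panel and with the mimic in the right panel; filled points have an adjusted p under 0.05, and siIPO8 stands for importin8 siRNA. ACSL4 is highest in the left panel (2.2), CPT1A is highest in the right panel (1.70), and SLC25A20 is lowest in the left panel (-1.82).

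Whether importin8 siRNA altered the response to the mimic was tested as the difference between the mimic effects. It passed for 14 of the 32 genes (43.8%), 7 with a higher and 7 with a lower value under importin8 siRNA, where 31.3% of all genes passed, 14.2% higher and 17.1% lower. In the fit of genes with a mean of at least 50 counts, 43% of the genes passed, with 8 higher and 7 lower among the 32. The share of the 32 genes was thus close to that of well-counted genes. In 12 of the 14 the mimic effect had the same sign and was smaller with importin8 siRNA, and in ECI2 and ACOX2 it had the opposite sign. Over all 5551 genes that passed this test the effect had the same sign and was smaller with importin8 siRNA in 71.5% and had the opposite sign in 26.2%. The differences of at least 2-fold (10.9% of all genes, 5.63% higher and 5.27% lower) were those of ACSL5 (-2.16 ± 0.10; adjusted p = 6.8e-07), ACSL3 (-1.25 ± 0.13; adjusted p = 5.7e-05), ACSL4 (-1.12 ± 0.12; adjusted p = 7.2e-05), BDH1 (2.13 ± 0.13; adjusted p = 2.8e-06) and SLC25A20 (1.63 ± 0.21; adjusted p = 0.00025). PPARA (0.78 ± 0.12; adjusted p = 0.00099), ACADSB (0.94 ± 0.09; adjusted p = 4.5e-05), EHHADH (0.66 ± 0.16; adjusted p = 0.011) and HADH (0.51 ± 0.14; adjusted p = 0.019) were also less lowered under importin8 siRNA. The HADH call did not pass without miR-552-3p replicate 2 (0.35; adjusted p = 0.051) or without any 1 of si-importin8-miR-552-3p replicates 1 and 2 and si-importin8-NC replicates 1 and 2 (0.50 to 0.52; adjusted p = 0.053 to 0.060), nor in DESeq2 (0.52; adjusted p = 0.058), and the EHHADH call did not pass on log2(FPKM + 1) in limma (0.66; adjusted p = 0.063). Without NC replicate 1 the number of lower values was 12 instead of 7.

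The arms share no library, so their calls can be set against each other. Of the 24 genes called for the mimic with control siRNA and the 18 called with importin8 siRNA, 17 were called in both with the same direction (70.8% of the first list and 94.4% of the second), 7 higher and 10 lower. Over all genes tested, 4668 were called in both with the same direction (45.1% of 10341 and 83.3% of 5607). In 15 of the 17 members the change was smaller with importin8 siRNA, as it was in 84.8% of the 4668. The median absolute log2 change with the mimic was 0.31 with importin8 siRNA and 0.59 with control siRNA over the 32 genes, and 0.32 and 0.59 over all genes. For the siRNA, 12 genes were called in the same direction with control mimic and with the mimic (57.1% of 21 and 66.7% of 18), 11 higher and 1 lower, where 2970 of all genes were (35.7% of 8329 and 50.1% of 5934). PPARA, ACSL5 and BDH1 were called in opposite directions there, 3 of the 15 called in both, against 25.2% of all genes called in both. The siRNA and mimic comparisons share libraries with each other, and their values for the 32 genes are given side by side only.

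**Figure D5:**
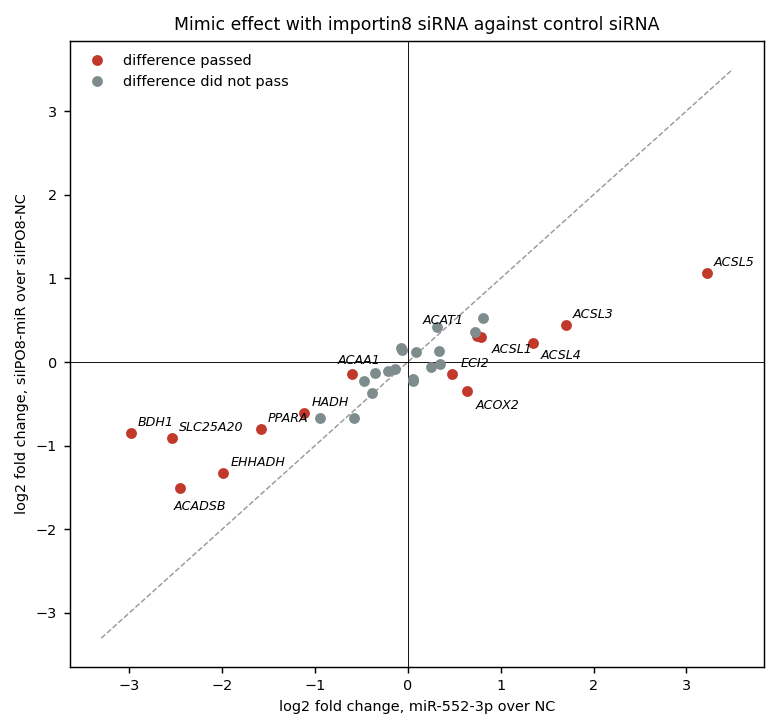
Mimic effect on each of the 32 genes with importin8 siRNA (vertical axis, log2 fold change, si-importin8-miR-552-3p over si-importin8-NC) against that with control siRNA (horizontal axis, log2 fold change, miR-552-3p over NC); the dashed line marks equal effects, and named red points passed the test of the difference. The 14 named genes lie nearer to the horizontal axis than the dashed line does, with ACOX2 and ECI2 on the opposite side of 0.

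Other genes of the pathway were described from lists of known members. Of all genes tested, the mimic raised 28.9% and lowered 29.5% with control siRNA, and raised 15% and lowered 16.7% with importin8 siRNA. The siRNA raised 25.4% and lowered 21.6% with control mimic, and raised 17.3% and lowered 16.2% with the mimic. Of the 18 tested genes of other mitochondrial fatty acid metabolism, 4 rose and 11 fell with the mimic and control siRNA (median -0.45), and 3 rose and 8 fell with importin8 siRNA (median -0.28). ACAD11, of the acyl-CoA dehydrogenase family, rose by 3.02 and 0.93 on the log2 scale with control and importin8 siRNA. ACSS1, the mitochondrial acetyl-CoA synthetase, fell by 2.80 and 0.68. MCEE, which acts in propionate breakdown, fell by 2.11 and ACOT9, an acyl-CoA thioesterase, rose by 1.40 with control siRNA. Of the 21 tested peroxisomal genes, 6 rose and 11 fell with the mimic and control siRNA (median -0.40), and 1 rose and 9 fell with importin8 siRNA (median -0.29), while the siRNA raised 10 and lowered 3 with control mimic and raised 10 and lowered 2 with the mimic. CROT, the peroxisomal carnitine octanoyltransferase, was at 6.18 and 5.32 CPM in miR-552-3p against 21.9 and 25.3 CPM in NC, and its mimic effect was -2.04 with control siRNA (adjusted p = 7.8e-07). PHYH, which starts alpha-oxidation of phytanic acid, was at -1.32 (adjusted p = 2.9e-07) in the same comparison.

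Of the 7 tested genes of other ketone steps, 1 rose and 2 fell with the mimic and control siRNA, and 1 rose and 3 fell with importin8 siRNA. The shares called were 42.9 and 57.1%, against 58.4 and 31.7% of all genes tested. SLC16A6, which in zebrafish exports ketone bodies from hepatocytes, was at 30.7 and 24.7 CPM in miR-552-3p against 0.720 and 1.01 CPM in NC, and at 63.4 and 51.1 CPM in si-importin8-miR-552-3p against 15.8 and 12.3 CPM in si-importin8-NC. Its mimic effect was 4.99 with control siRNA (adjusted p = 5.9e-07) and 2.02 with importin8 siRNA (adjusted p = 6.5e-05). AACS, which activates acetoacetate in the cytosol, fell by 0.31 with the mimic and control siRNA (adjusted p = 0.0032), and with importin8 siRNA its difference of -0.03 did not pass.

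Of 10 tested genes of other uptake and activation steps, 2 rose and 4 fell with the mimic and control siRNA. The share called was 60%, close to the 58.4% of all genes tested. FABP5, another fatty acid binding protein, rose by 0.71 (adjusted p = 0.00067; with importin8 siRNA -0.09, not passed). DBI, the acyl-CoA binding protein, fell by 0.67 (adjusted p = 0.00017; with importin8 siRNA -0.25, not passed). SLC27A1, a fatty acid transporter, fell by 0.49 (adjusted p = 0.019), which did not pass without NC replicate 1 (-0.47; adjusted p = 0.069), without miR-552-3p replicate 1 (-0.38; adjusted p = 0.13) or in DESeq2 (-0.50; adjusted p = 0.12). Of 25 tested regulators and known PPARA targets outside the pathway, 12 rose and 10 fell with the mimic and control siRNA (88% called). With importin8 siRNA 7 rose and 7 fell (56% called). VNN1, a pantetheinase, was at 93.8 and 94.4 CPM in miR-552-3p against 4.14 and 3.46 CPM in NC (4.63; adjusted p = 1.5e-09). PPARD, the delta relative of PPARA, was at 147 and 142 CPM in miR-552-3p against 25.8 and 25.8 CPM in NC (2.48; adjusted p = 1.4e-09). CREB3L3, a liver transcription factor that works with PPARA in fasting, was at 5.72 and 5.94 CPM in miR-552-3p against 89.4 and 84.1 CPM in NC (-3.89; adjusted p = 6.6e-10). CIDEC, a lipid droplet protein, rose by 1.93 with control siRNA (adjusted p = 2.1e-06), and with importin8 siRNA its difference of -0.23 did not pass (adjusted p = 0.23).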

How the data were processed

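Poly(A) RNA of 8 HepG2 libraries was read as single-end reads of 50 bases, per the labels' protocols. The deposited table gives an expected count and an FPKM for each gene and library, per the file headers. The submitters' processing notes name RSEM 1.2.8, Bowtie2 2.2.5, HISAT2 2.0.4 and the build GRCh38.p12, with no role stated. Columns were matched to titles by their abbreviations, NC51, NC52, SI51 and SI52 being read as the mimic libraries, and 0 columns of per-sample values were left unmapped. Expected counts share reads among similar genes, so close paralogs and overlapping genes are uncertain.

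Expected counts were rounded, filtered with filterByExpr (17715 genes kept), scaled by TMM (factors 0.961 to 1.06) and fitted together, with 1 mean per group, by edgeR 4.0.16 (R 4.3.3; robust quasi-likelihood F test). A call needs an adjusted p under 0.05 (Benjamini-Hochberg, all tested genes), and the approximate SE divides the log2 fold change by the square root of F. FPKM was used to compare levels between genes, for the sums, shares and means of FPKM given by group, and, as log2(FPKM + 1), in one alternative. It was used as given, without TMM factors. The FPKM totals of the libraries ran from 395642 (NC replicate 2) to 461105 (miR-552-3p replicate 1). The other alternatives were RLE and upper-quartile scaling, no filter, a mean of at least 50 counts, DESeq2 1.42.0, limma-voom (limma 3.58.1), the 4 libraries compared alone, a replicate block, and leaving out each library. The code was tested on simulated data.

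The 32 genes, the other lists and the tests were chosen with earlier results of these data known. Values in each library are given for PPARA, for genes called at 2-fold or more in a comparison and for the gene with the largest mimic effect in each step, and also for HADHA and ACAT1, chosen later. Up to 4 called genes with a mean of at least 100 counts were named from each other list. They were those with the largest absolute log2 fold change for the mimic with control siRNA. SLC27A3 and FABP4 were not matched in the table, and some genes and matches are not reported here. Replicate libraries differed beyond counting noise in every group (chi-square per degree of freedom 4.53 to 10.6), and each counted as 1 sample.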

Additional observations from a re-analysis of the deposited data

Results flagged for a closer look

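For 14 of the 32 genes (43.8%) and 13 of the 15 other genes named, the mimic effect differed between the importin8 siRNA and control siRNA arms in edgeR's quasi-likelihood test of that difference (adjusted p under 0.05), as it did for 31.3% of all genes tested. In the fit of genes with a mean of at least 50 counts, 43% passed. The 15 were named for the largest absolute log2 fold changes among the called genes of their lists, for the mimic with control siRNA. That effect is subtracted in the difference, so a high share among the 15 is partly built in by the choice. Over their whole lists the difference passed for 6 of 18 other mitochondrial genes (33.3%), 6 of 21 other peroxisomal genes (28.6%), 1 of 7 other ketone genes (14.3%), 3 of 10 other uptake and activation genes (30%) and 15 of 25 regulators and PPARA targets (60%). Values are log2, the effect with importin8 siRNA minus that with control siRNA.

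Among the 14 genes, the differences were negative in those the mimic raised with control siRNA. They were -2.16 for ACSL5, -1.25 for ACSL3, -1.12 for ACSL4, -0.98 for ACOX2, -0.62 for ECI2, -0.49 for ACSL1 and -0.43 for ACAT1. In the genes the mimic lowered, they were positive: 2.13 for BDH1, 1.63 for SLC25A20, 0.94 for ACADSB, 0.78 for PPARA, 0.66 for EHHADH, 0.51 for HADH and 0.46 for ACAA1. The effects with control siRNA that enter these differences share their NC libraries. Those effects are subtracted, so an opposite sign of the difference is mostly built in. Of all 5551 genes that passed, 2.36% had the same sign in both arms and an effect at least as large with importin8 siRNA.

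Among the other pathway genes the differences were -2.97 for SLC16A6, -2.09 for ACAD11, 2.12 for ACSS1, -0.72 for ACOT9, 1.205 for MCEE, 1.31 for CROT, 0.70 for PHYH, -0.80 for FABP5 and 0.41 for DBI. Among the regulators and PPARA targets they were -1.81 for PPARD, 2.41 for CREB3L3, -2.95 for VNN1 and -2.16 for CIDEC. The HADH and DBI differences each lost their call in 6 of 16 alternatives.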

How the results depend on the processing

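Each of the 32 genes' values was recomputed under every alternative, which gave 2688 values. Of these, 2568 stayed on their side of the threshold, 63 lost a call and 57 gained one. Among values called in the main fit or the alternative, 0 changed sign. The sign of values called in neither was not compared. Of 1344 values of the other named genes, 1298 stayed on their side of the threshold, 35 lost a call and 11 gained one. The counts moved by over 1.5 times only when 1 library was left out: the genes raised by the mimic with importin8 siRNA were 4 without si-importin8-NC replicate 1 or si-importin8-miR-552-3p replicate 1, against 7, and the lower differences between the mimic effects were 12 without NC replicate 1, against 7. Over the 8 such fits, the higher and lower counts ranged over 11 to 15 and 12 to 12 for the mimic with control siRNA, 4 to 9 and 8 to 12 with importin8 siRNA, 16 to 19 and 3 to 4 for the siRNA with control mimic, 14 to 18 and 2 to 2 with the mimic, and 6 to 8 and 7 to 12 for the difference. The median over the 32 genes ranged over -0.052 to 0.047, -0.13 to -0.10, 0.23 to 0.32, 0.28 to 0.33 and -0.071 to 0.099 in the same order, so the first and last have no fixed sign. Same-numbered replicates did not deviate together (correlations -0.0034 to 0.087), so the numbers were not taken as pairs, and with a replicate block the higher and lower counts were 12 and 12, 8 and 12, 18 and 4, 16 and 2, and 8 and 8. The calls of the 32 genes lost when 1 library was left out were those of differences of 0.22 to 0.51 in size on the log2 scale, and SLC25A20 held the lowest counts among the 32.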
